A study of Mus musculus with 104 samples.

Results

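The genes described here encode subunits of the mitochondrial respiratory chain and ATP synthase. They were taken as every gene whose symbol starts with Nduf, Uqcr or Atp5, or with Cox4 to Cox8. The rule found 86 of the 18193 genes measured on Affymetrix mouse arrays. Of these, 34 encode complex I subunits, 8 are the complex I assembly factors Ndufaf1 to Ndufaf8, 8 belong to complex III, 19 to complex IV and 17 to complex V. Ndufa4, Ndufa4l2 and Cox7a2l were counted with complex IV. Genes that fit the rule but had no probe set naming them alone were not analysed here. The rule used names only and no measured value.

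Complexes I, III and IV pass electrons from NADH to oxygen and pump protons across the inner mitochondrial membrane, and complex V uses the returning protons to make ATP. Complex II, a citric acid cycle enzyme, also feeds electrons into the chain but lies outside the naming rule. Neurons draw most of their ATP from this pathway to restore ion gradients after firing. Several complex IV subunits exist in a widespread form and a form best known from heart and skeletal muscle or from testis.

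Each of 52 regions was measured on 2 arrays. All mice were male Balb/c animals of 7 to 8 weeks without a mutation or drug treatment, adapted for 2 weeks to 12 hours of light and 12 hours of dark. Tissue was taken in the light cycle or in constant darkness, and the labels do not say which applied to which region. Slices 0.5 mm thick were punched, and RNA from 6 time points taken every 4 hours was pooled, so no array describes 1 animal or 1 time of day. The region for which the study was made, called POA/BF here as in the labels, holds the basal forebrain and preoptic area. The other 51 regions comprised 12 hypothalamic, 5 thalamic, 9 midbrain and hindbrain, 17 telencephalic, 2 cerebellar cortical and 2 spinal cord regions, the habenula, and 3 tissues outside brain and spinal cord, which were retina, pituitary and pineal gland.

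Promoter sequences are shown because most of these genes moved together across regions. RefSeq windows of the build GRCm38.p6, running from 250 bases before the gene start to 50 after it, matched 71 of the 86 genes in 76 windows. On both strands, 3 motifs were searched. The core site of NRF1, a factor known for nuclear genes of respiration, was searched as GCGCATGCG. The ETS core, bound by the nuclear respiratory factor GABP among others, was CCGGAAGT, and the YY1 core was AANATGGCG. The NRF1 core was found in 9 of the 76 windows (11.8%), against 1.75% of all 32851 promoter windows. The YY1 core was found in 10 windows (13.2%), against 2.38% of all windows. The ETS core was found in 5 windows (6.58%), against 3.89% of all windows. Any of the 3 was held by 23 windows (30.3%), against 7.51% of all windows. In 6 windows, NRF1 matches of both strands overlapped, and no other matches did. Windows of genes that correlated above 0.7 with the other members held a motif in 15 of 48 cases (31.2%). That was near the share of all member windows (30.3%). Windows of genes below 0.3 held a motif in 0 of 7 cases, which are too few to compare. Genes between these values held motifs too, among them Atp5g2 (correlation 0.42), Ndufaf8 (0.43) and Cox8a (0.55). A match describes letters in the window and does not show that a factor binds there.

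The sequences printed are the 250 bases before the start, from 5′ to 3′ on the gene's strand, with the motif in capitals. For each motif, the gene that followed the other subunit genes most closely among those with a match wholly before the start is shown. Atp5l, subunit g of complex V, holds the NRF1 core on the opposite strand in its window at chr9:44920743-44920992 on the minus strand. Uqcrh, the hinge protein of complex III, holds the ETS core on the opposite strand at chr4:116075071-116075320, minus strand. Atp5j, coupling factor 6 of complex V, holds the YY1 core at chr16:84834977-84835226, minus strand. Cox8b and Cox7a1, the 2 genes with the widest range over regions, correlated with the other members at 0.49 and 0.61 and are shown for that range, from chr7:140900447-140900696, minus strand, and chr7:30183921-30184170, plus strand. Neither holds any of the 3 motifs in its window.
Atp5l: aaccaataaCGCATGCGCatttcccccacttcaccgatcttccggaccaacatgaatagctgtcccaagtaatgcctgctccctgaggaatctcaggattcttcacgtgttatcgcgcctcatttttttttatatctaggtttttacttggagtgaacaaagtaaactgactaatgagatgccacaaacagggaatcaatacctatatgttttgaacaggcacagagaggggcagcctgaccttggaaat
Uqcrh: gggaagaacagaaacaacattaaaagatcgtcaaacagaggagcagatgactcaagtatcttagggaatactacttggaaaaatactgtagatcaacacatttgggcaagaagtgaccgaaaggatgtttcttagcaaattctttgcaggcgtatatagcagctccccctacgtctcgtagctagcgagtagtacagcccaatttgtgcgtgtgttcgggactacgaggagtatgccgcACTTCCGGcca
Atp5j: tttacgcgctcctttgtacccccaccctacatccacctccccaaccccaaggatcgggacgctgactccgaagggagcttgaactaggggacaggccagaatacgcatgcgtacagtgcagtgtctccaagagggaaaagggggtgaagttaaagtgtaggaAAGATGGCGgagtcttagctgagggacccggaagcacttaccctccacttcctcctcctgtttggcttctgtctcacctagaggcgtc
Cox8b: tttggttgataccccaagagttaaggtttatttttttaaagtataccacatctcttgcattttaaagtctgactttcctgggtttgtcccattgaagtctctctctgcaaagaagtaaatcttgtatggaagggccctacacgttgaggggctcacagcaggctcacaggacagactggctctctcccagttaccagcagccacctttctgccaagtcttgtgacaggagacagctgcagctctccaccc
Cox7a1: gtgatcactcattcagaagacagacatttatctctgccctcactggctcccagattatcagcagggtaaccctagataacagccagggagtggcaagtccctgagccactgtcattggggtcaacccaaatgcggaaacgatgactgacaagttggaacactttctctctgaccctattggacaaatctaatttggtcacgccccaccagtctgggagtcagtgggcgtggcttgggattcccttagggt

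All values are on the log2 scale, on which 1 unit is a 2-fold difference, and run from 3.88 to 15.15 with a median of 8.10 over the genes. Array brightness differs between probe sets, so each gene is compared only with itself across regions. The 2 arrays of a region correlated at 0.972 to 0.998 over all genes. Markers bore out the labels of pineal gland (Tph1) and suprachiasmatic nucleus (Vip), each highest there. Gh was at 14.70 in pituitary and did not separate it from retina. The list mean of 7 anterior pituitary markers was 13.36 in pituitary and 11.22 in retina. The region labelled lateral hypothalamus ranked 14 of 52 for Pmch and 13 of 52 for Hcrt, both of which were highest in dorsomedial hypothalamus. It is therefore called the labelled lateral hypothalamus. The retina arrays also held RNA of other tissues. All 8 photoreceptor markers were higher there than in any of the 49 brain and spinal cord regions, but so were 9 of 12 striated muscle markers and 5 of 7 anterior pituitary markers. Acta1, the actin of skeletal muscle, was at 13.97 in retina and 7.40 in brain and spinal cord, and Gh was at 14.69 in retina, against a median of 7.51 over the 52 regions. Results are therefore given over the 49 brain and spinal cord regions beside all 52. In punched tissue, fewer cells of a type and less RNA per cell cannot be told apart.

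Levels of respiratory chain genes varied over the regions, but by modest amounts. The gap between a gene's highest and lowest region had a median of 1.18 log2 units over the 86 genes, against 1.24 over all genes. In the limma F test over the 52 regions, 63 of 86 genes (73.3%) had an adjusted p under 0.05 and a range of at least 2-fold, against 60.3% of all genes. At any range, 85 of 86 passed, against 95.1% of all genes. The exception was Cox4i2, the lung-enriched form of subunit 4, at an adjusted p of 0.125 in the limma F test. The call was made for 29 of 34 complex I genes, 4 of 8 assembly factors, 5 of 8 complex III genes, 14 of 19 complex IV genes and 11 of 17 complex V genes. Without retina, pituitary and pineal gland the call was made for 40 of 86 genes, against 47.5% of all genes, so the share of members was no longer above that of all genes. Without pituitary alone the count was 50, against 58.7% of all genes, and without retina alone 59, against 55% of all genes.

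A mean over the 86 genes, each first set to 0 at its own mean over the 52 regions, summarised the regions. It had a pooled SD between the 2 arrays of a region of 0.0529. Retina arrays were at 0.36 and 0.39, cerebellar nucleus arrays at 0.40 and 0.30, and both medial vestibular nucleus arrays at 0.34. On this mean, these 3 regions did not differ beyond that spread. Anterior spinal cord (0.25 and 0.35), ventral anterior and ventrolateral thalamus (0.27 and 0.25) and ventral posterior thalamus (0.28 and 0.21) came next. In cerebellar nucleus and in medial vestibular nucleus, 79 of 86 genes were above their own mean, with medians over the genes of 0.36 and 0.37. In retina 66 genes were above their own mean, and the median was 0.21. The mean of the complex IV genes there was 0.83, against 0.24 for complex I. At the other end, pituitary arrays were at -0.43 and -0.52, below all other arrays, and 72 of 86 genes were below their mean there. Dorsal subparaventricular zone (-0.29 and -0.33), median eminence (-0.29 and -0.23) and piriform cortex (-0.25 and -0.27) were the lowest within the brain, and their arrays overlapped in part. The 3′ to 5′ difference of Gapdh, a sign of RNA length, was 0.07, 0.22 and 0.17 in these regions. Its mean in brain and spinal cord was -0.05. That of Actb was 1.77, 1.37 and 1.39, against a mean of 0.91. The part of RNA length in their low levels was not tested. Counted gene by gene over the 52 regions, retina was the highest region for 19 genes, medial vestibular nucleus for 17 and pineal gland for 14, and pituitary was the lowest region for 42.

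The division means set hypothalamus and telencephalon low. Thalamus, spinal cord, cerebellar cortex and the joint division of midbrain and hindbrain were high. The mean over regions was 0.23 in spinal cord (SD 0.10, n = 2 regions), 0.16 in thalamus (SD 0.09, n = 5), 0.14 in cerebellar cortex (SD 0.04, n = 2) and 0.13 in midbrain and hindbrain (SD 0.17, n = 9). It was -0.07 in telencephalon (SD 0.09, n = 17) and -0.12 in hypothalamus (SD 0.12, n = 12). Midbrain and hindbrain regions differed among themselves. In midbrain, superior colliculus and ventral tegmental area both stood at -0.12, inferior colliculus at 0.07, periaqueductal gray at 0.11 and substantia nigra at 0.17. The dorsal tegmental, pontine, medial vestibular and cerebellar nuclei ran from 0.16 to 0.35. Within thalamus, medial geniculate was lowest at 0.05.

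**Figure D1:**
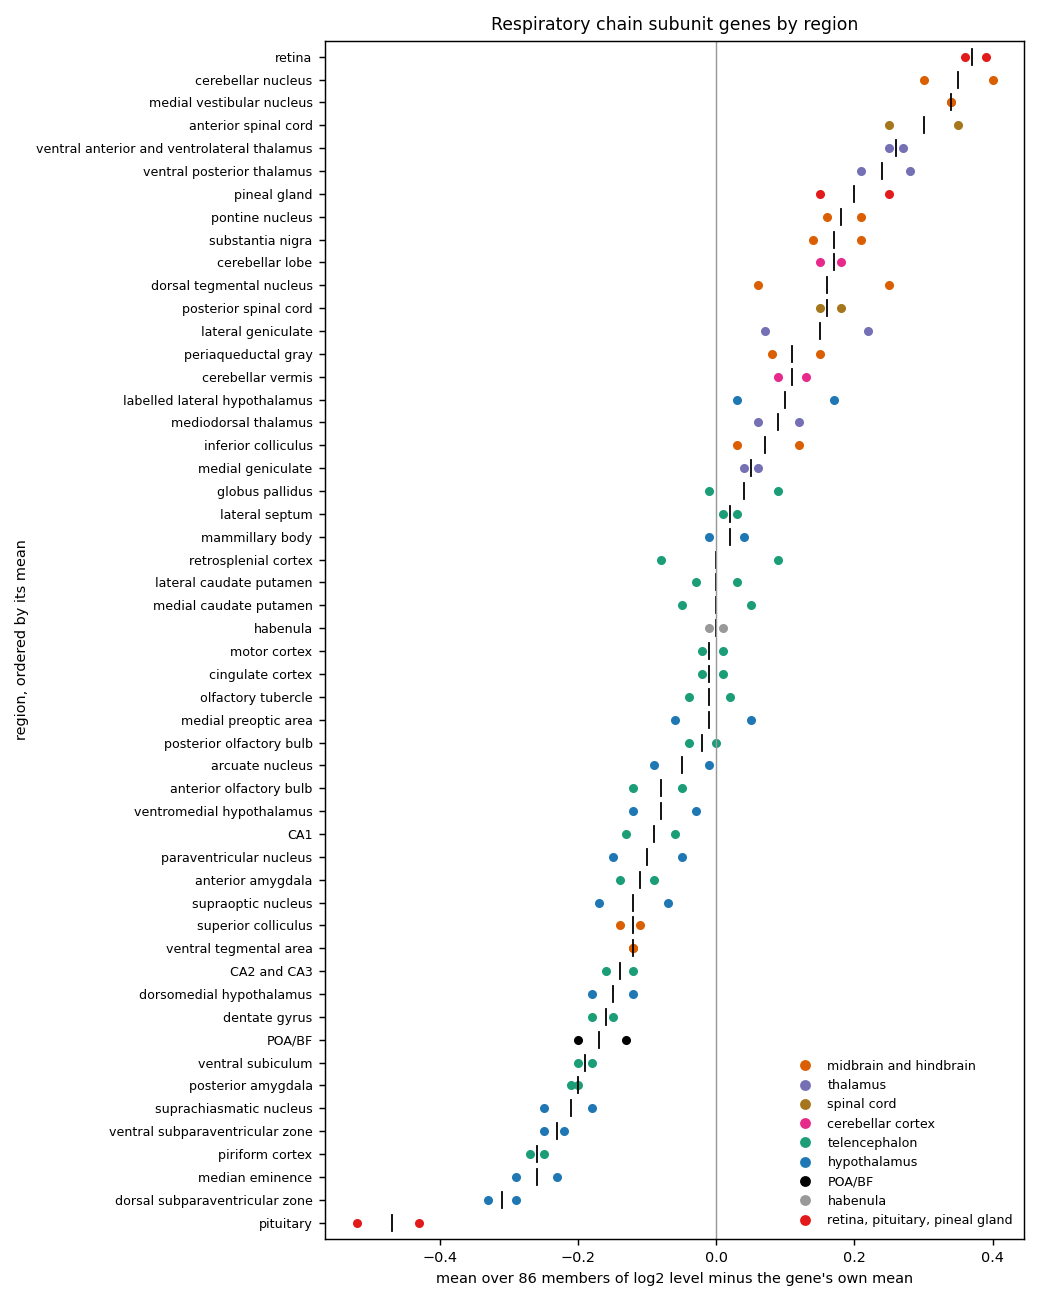
Mean log2 level of the 86 respiratory chain genes, each relative to its own mean over 52 regions, by region and division, with points for the 2 arrays of each region. Retina (0.37) and cerebellar nucleus (0.35) stand highest and pituitary (-0.47) lowest, and most hypothalamic regions lie below 0. The median over the genes was 0.21 in retina and 0.36 in cerebellar nucleus.

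The genes of the chain followed each other across regions. Over the 49 brain and spinal cord regions, the median correlation between pairs of the 86 genes was 0.52, and 88.3% of pairs were above 0. The median over pairs of all genes was 0.00. Such linkage was not particular to the chain. The same median was 0.75 for cytosolic ribosome genes, 0.72 for citric acid cycle genes, 0.32 for proteasome genes and 0.31 for mitochondrial ribosome genes. The first principal component held 54.7% of the variance of the 86 genes over 49 regions and 46.9% over 52. These correlations are descriptions, since all points share the RMA normalisation and rest on 2 arrays each. By complex, the median pairwise correlation was 0.65 for complex V, 0.61 for complex I, 0.60 for complex III, 0.26 for the assembly factors and 0.16 for complex IV. The means of the 4 complexes correlated with each other at 0.85 to 0.97.

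Against the mean of the other members, 54 genes had a correlation above 0.7, 20 were between 0.3 and 0.7, and 12 were below 0.3. The closest was Ndufa9, an accessory subunit of the peripheral arm of complex I, at 0.95. It was highest in cerebellar nucleus (11.75) and lowest within the brain in median eminence (10.70). The lowest were Cox7c at -0.16, Ndufb4 at -0.09, Ndufa4l2 at -0.05, Cox8c at -0.01 and Cox6a2 at 0.00. Of the 12 below 0.3, 7 were dim, with a mean under the median of all values. Among these, the probe sets that stood for Cox7c and Ndufb4 averaged 6.38 and 6.36. Both genes encode widely expressed subunits, and their values rest on these dim probe sets. Cox8c, the testis form of subunit 8, had the narrowest range of the brighter genes.

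**Figure D2:**
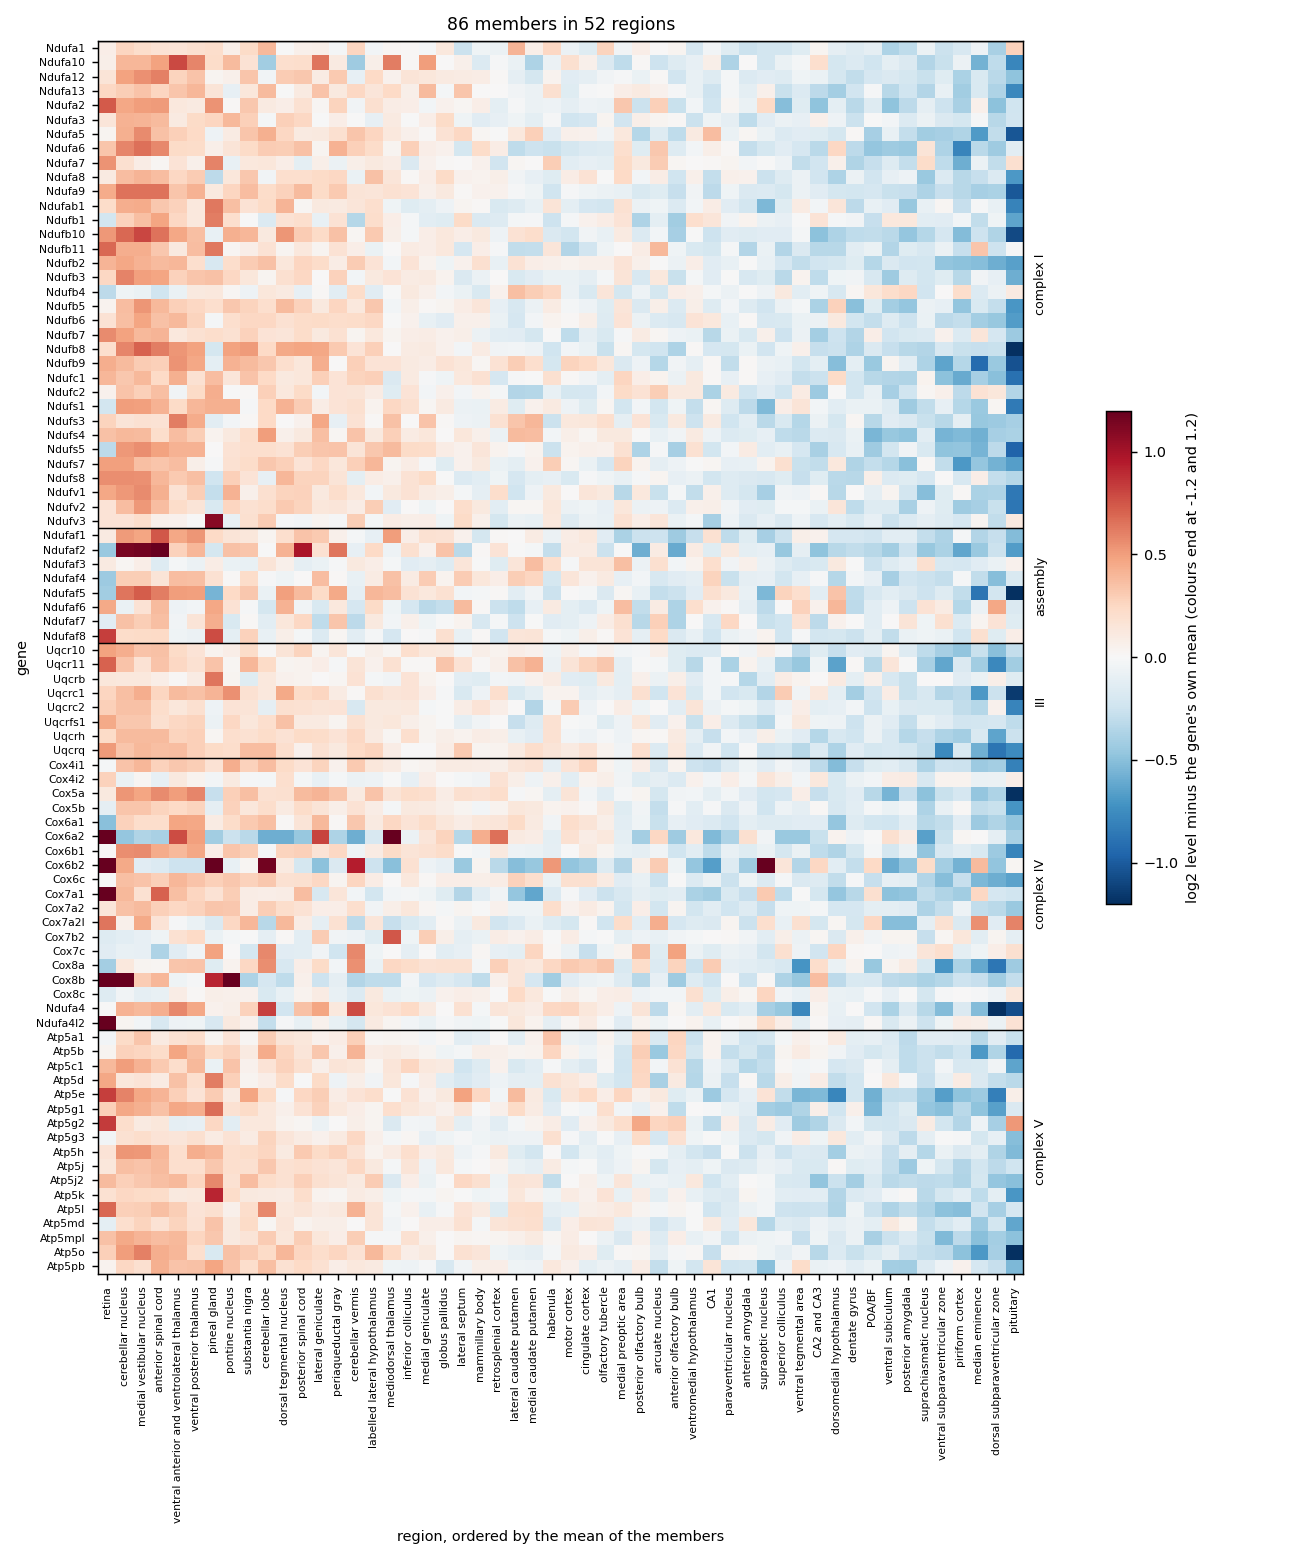
Level of each of the 86 genes in each of the 52 regions relative to the gene's own mean, in log2 units, with genes grouped by complex and regions ordered by the mean of the 86 genes. Most rows share a pattern high in cerebellar nucleus and medial vestibular nucleus and low in pituitary, while Cox8b, Cox7a1 and Cox6a2 stand out in retina.

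The 10 widest ranges were those of Cox8b (5.48 log2 units), Cox7a1 (5.23), Cox6a2 (3.74), Cox6b2 (2.81), Cox5a (2.36), Ndufaf5 (2.26), Ndufa4 (2.14), Ndufb8 (2.04), Ndufaf2 (2.03) and Atp5o (1.97). The first 4 are the muscle and testis forms of complex IV subunits and had their highest level in retina. Cox5a, Ndufaf5, Ndufb8, Ndufaf2 and Atp5o had their lowest level in pituitary. Over the 49 regions alone the ranges of Cox8b and Cox7a1 were 1.76 and 1.33. Those of Ndufa4 and Ndufaf2 stayed at 2.14 and 1.98.

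Among genes above the median level, the narrowest ranges were those of Cox8c (0.47), Ndufaf3 (0.63), Atp5a1 (0.68), Ndufa3 (0.74) and Atp5g3 (0.78). Atp5a1 encodes the alpha subunit of the F1 part of ATP synthase and Atp5g3 is 1 of 3 genes for its c subunit. Atp5a1 had a lowest array of 12.76, a median of 13.15 and a highest array of 13.56. It was highest in habenula (13.49) and lowest in median eminence (12.81). Ndufaf3, a complex I assembly factor, was lowest in POA/BF (9.47) and highest in medial caudate putamen (10.10).

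Thalamus was compared with hypothalamus. The chain was higher in thalamus. At an adjusted p under 0.05 in limma and any fold, 69 of 86 genes rose, against 27.3% of all genes, and 8 fell, against 33% of all genes. The median difference was 0.28 log2 units, against 0.00 over all genes. Higher levels were called for 30 of 34 complex I genes, 7 of 8 complex III genes, 12 of 19 complex IV genes and 16 of 17 complex V genes, but for only 4 of 8 assembly factors, and the other 4 assembly factors were lower. With a size of at least 1.5-fold as well, 6 genes were higher (background 5.13%) and none lower (background 6.33%).

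Ndufa10, an accessory complex I subunit, ranged from 12.03 to 12.55 on thalamic arrays and from 10.98 to 11.66 on hypothalamic arrays, so the groups did not overlap. Its mean was 12.20 ± 0.11 in thalamus and 11.32 ± 0.16 in hypothalamus (SD over regions, n = 5 and 12), a difference of 0.88 (SE 0.05, limma adjusted p = 9.55e-25). Ndufs3, a core subunit of the peripheral arm, averaged 12.19 in thalamus and 11.51 in hypothalamus, a difference of 0.68 (SE 0.03, limma adjusted p = 8.54e-28) without overlap. Ndufaf1, which helps to assemble the membrane arm, averaged 9.31 in thalamus and 8.62 in hypothalamus, also without overlap (difference 0.68, SE 0.04). Ndufb9 had a difference of 0.65, and its other bright probe set gave 0.70.

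Cox6a2, the muscle form of subunit 6a, had a lowest, median and highest array of 8.24, 8.79 and 10.14 in thalamus, against 7.39, 8.05 and 8.72 in hypothalamus. Its groups overlapped, and the difference was 0.89 (SE 0.04, limma adjusted p = 5.87e-27). The highest thalamic level was in mediodorsal thalamus, at 9.81 and 10.14. Ndufa4, a subunit of complex IV despite its name, averaged 12.54 in thalamus and 11.87 in hypothalamus, with overlap. Smaller differences were found for Atp5b and Cox5a. Atp5b, the catalytic beta subunit of ATP synthase, averaged 13.55 in thalamus and 13.05 in hypothalamus, and Cox5a averaged 12.91 in thalamus and 12.39 in hypothalamus.

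Cell markers differed between the same regions. All 7 markers of fast-spiking neurons were higher in thalamus (list mean by region 9.48 to 10.96 in thalamus, against 7.75 to 9.39 in hypothalamus). All 8 oligodendrocyte markers were also higher (10.59 to 11.89, against 8.86 to 11.97), as were 10 of 12 general neuron markers (12.30 to 12.55, against 10.46 to 12.14). Of 10 meninges markers, 9 were lower (7.22 to 8.00, against 7.13 to 10.28). Their part in the result was not tested. The 2 arrays of a region are replicate samples whose animals the labels do not describe, so these p-values measure the spread between such arrays. With region means as samples, so that the spread between regions enters, 47 genes were higher and none lower at any fold, against 11.6% and 15.5% of all genes.

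**Figure D3:**
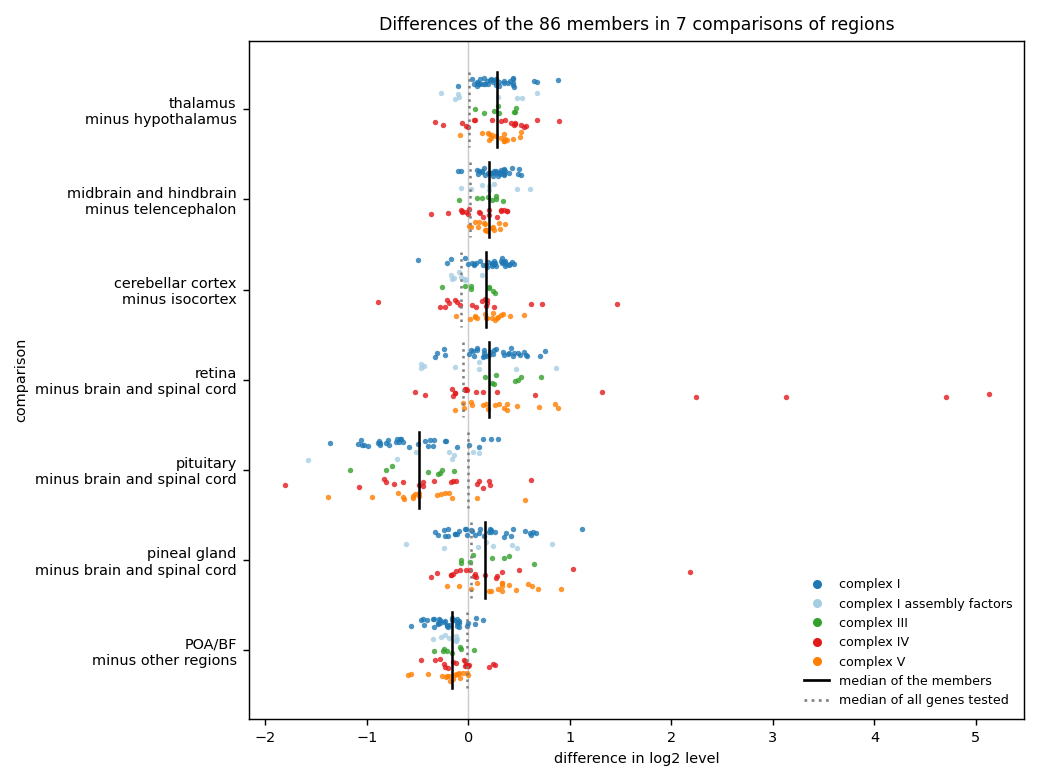
Difference in log2 units of each of the 86 genes in the 7 comparisons, 1 point per gene coloured by complex, a solid line at the median of the 86 genes and a dotted line at that of all genes tested. The points lie mostly above 0 for thalamus minus hypothalamus (median 0.28) and below 0 for pituitary minus brain and spinal cord (median -0.49).

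Midbrain and hindbrain were compared with telencephalon. The chain was higher in the mean of the 9 midbrain and hindbrain regions, in small steps shared by most genes. Not every region was high, since superior colliculus and ventral tegmental area were at -0.12 on the 86-gene mean, against -0.07 in telencephalon. At any fold 71 of 86 genes rose, against 33.3% of all genes, and 7 fell, against 23.8% of all genes. Their median difference was 0.20, against 0.01 over all genes. Other lists rose nearly as often. Of 40 proteasome genes, 30 were higher and 4 lower (median 0.17), and of 76 mitochondrial ribosome genes, 56 were higher and 5 lower (median 0.15). Cytosolic ribosome genes rose less often, with 17 of 40 higher and 8 lower. By complex the higher genes were 32 of 34 in complex I, 6 of 8 assembly factors, 7 of 8 in complex III, 11 of 19 in complex IV and 15 of 17 in complex V. Past 1.5-fold, 1 gene was higher (background 4.94%) and none lower (background 3.93%).

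That gene was Ndufaf2, an assembly factor for the peripheral arm of complex I. It averaged 9.31 ± 0.52 in midbrain and hindbrain and 8.70 ± 0.29 in telencephalon (SD over regions, n = 9 and 17), with overlapping arrays and a difference of 0.61 (SE 0.05, limma adjusted p = 1.01e-18). The difference was 0.556, under 1.5-fold, when each array was centred on its median. Its level was 10.06 in medial vestibular nucleus and 10.04 in cerebellar nucleus, and outside these divisions it was highest in anterior spinal cord, at 10.26 and 10.27. Ndufb8 and Ndufb10, accessory subunits of the membrane arm, differed by 0.52 (SE 0.03) and 0.50 (SE 0.04). Atp5b differed by 0.18, with 13.45 in midbrain and hindbrain and 13.27 in telencephalon.

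All 7 fast-spiking markers were higher in midbrain and hindbrain (9.48 to 11.26, against 8.56 to 10.33 in telencephalon), and so were all 8 oligodendrocyte markers (10.75 to 11.94, against 7.74 to 11.64). Of 10 astrocyte markers 7 were higher (10.88 to 11.55, against 9.90 to 11.09), and 8 of 9 microglia markers were lower (8.36 to 9.75, against 8.57 to 9.95). Of the 12 general neuron markers, 5 were higher and 3 lower. Their part in the result was not tested. With region means as samples, 49 genes were higher and 1 lower, against 17.6% and 9.62% of all genes.

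Cerebellar cortex was compared with isocortex, where Purkinje and granule cells are set against cortical neurons. The chain was mostly higher in cerebellar cortex, but complex IV split. At any fold 48 of 86 genes rose, against 25.1% of all genes, and 10 fell, against 31.7% of all genes. Over the 86 genes the median was 0.17, against -0.08 over all genes. Complex I had 23 higher and 3 lower of 34, complex V 12 higher and none lower of 17, and complex IV 9 higher and 5 lower of 19. None of the 8 assembly factors was higher and 1 was lower. Past 1.5-fold, 3 genes were higher (background 8.95%) and 1 lower (background 7.32%).

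Cox6b2, the testis form of subunit 6b, averaged 8.49 in cerebellar cortex and 7.03 in isocortex, a difference of 1.46 (SE 0.10, limma adjusted p = 9.28e-21). Ndufa4 averaged 12.98 in cerebellar cortex and 12.36 in isocortex, a difference of 0.62 (SE 0.07) that was 0.581, under 1.5-fold, without the first retrosplenial cortex array. Cox6a2 went the other way, with 7.55 in cerebellar cortex and 8.44 in isocortex, a difference of -0.89 (SE 0.08, limma adjusted p = 3.82e-16). The arrays of the 2 groups did not overlap for these genes. The dim probe set of Cox7c gave 6.96 in cerebellar cortex and 6.23 in isocortex. Ndufa10 was lower in cerebellar cortex at 11.14, against 11.65 in isocortex (difference -0.50, SE 0.08).

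With 2 cerebellar and 3 isocortical regions, this comparison rests on few pieces of tissue. The hybridisation control probe sets also differed, with a mean of 10.76 in cerebellar cortex and 11.41 in isocortex. By region they were at 10.72 and 10.79 in cerebellar cortex, against 11.35 to 11.52 in isocortex. The part of this array difference was not tested and cannot be told apart from the regions. Of 7 fast-spiking markers, 6 were higher in cerebellar cortex (list mean 10.73 to 10.75, against 9.19 to 10.30 in isocortex), 7 of 8 oligodendrocyte markers were higher (10.34 to 10.42, against 9.07 to 10.31), and all 9 microglia markers were lower (7.94 to 7.98, against 8.73 to 9.30). Their part was not tested.

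Retina was compared with the 49 brain and spinal cord regions. It held the highest levels of several tissue-restricted forms of complex IV subunits, beside a smaller rise in many other genes. At any fold 53 of 86 genes rose, against 35.7% of all genes, and 12 fell, against 37.3% of all genes. The 86 genes had a median difference of 0.21, against -0.06 over all genes. Past 1.5-fold, 13 genes were higher (background 21.2%) and none lower (background 14.9%). With arrays centred on their median the counts were 8 higher and 5 lower, and quantile normalisation gave 4 lower. This count of higher genes, 13 of 86, was a smaller share than that of all genes. All 8 complex III genes and 11 of 17 complex V genes were higher at any fold, and 24 of 34 complex I genes. With region means as samples, 18 of 86 genes were higher and none lower at any fold, against 21.2% and 13.5% of all genes. The share of higher genes was then no longer above that of all genes.

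Cox8b, the muscle form of subunit 8, was at 12.02 and 12.07 in retina, against 6.49, 6.84 and 8.63 as the lowest, median and highest array in brain and spinal cord. The difference was 5.13 (SE 0.09, limma adjusted p = 1.65e-51) without overlap, and the brain and spinal cord arrays were mostly dim, under the median of all values. Cox7a1, the muscle form of subunit 7a, averaged 10.91 in retina and 6.21 in brain and spinal cord, a difference of 4.70 (SE 0.10). Cox6a2 averaged 11.22 in retina and 8.09 in brain and spinal cord, a difference of 3.13 (SE 0.08). All 3 are genes of striated muscle, and the striated muscle markers had a list mean of 10.43 in retina, against 6.06 to 6.53 in brain and spinal cord. The part of that tissue in these levels was not tested.

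Cox6b2 averaged 9.59 in retina and 7.35 in brain and spinal cord, a difference of 2.24 (SE 0.11, limma adjusted p = 3.20e-28). Ndufa4l2, a relative of Ndufa4 known as a target of hypoxia-inducible factor, was at 8.87 and 9.48 in retina, against a mean of 7.85 in brain and spinal cord (difference 1.32, SE 0.08). The other genes past 1.5-fold were Ndufa2, Ndufb11, Ndufaf8, Uqcr11, Cox7a2l, Atp5e, Atp5g2 and Atp5l, with differences between 0.66 for Cox7a2l and 0.88 for Atp5g2. Cox6a1, the widespread form of subunit 6a, was lower in retina at 12.95, against 13.47 in brain and spinal cord (difference -0.53, SE 0.05).

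Photoreceptor markers had a list mean of 10.63 in retina, against 6.35 to 6.78 in brain and spinal cord. Meninges markers were at 10.84, against 7.05 to 10.28, and all 12 general neuron markers were lower (9.20, against 10.46 to 12.69). All 9 endothelium markers, all 10 pericyte and smooth muscle markers and 7 of 8 choroid plexus markers were higher. These lists moved with the result and their part was not tested. When each array was centred on its own median, the median of all genes in retina shifted by -0.176 and the median of the 86 genes became 0.0301. With quantile normalisation the 86 genes had a median of 0.119, which was 0.223 above that of all genes, against 0.261 in the deposited values.

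Pituitary was compared with the same 49 regions. It was the tissue with the lowest levels of the chain, and subunits of every complex were lower. At any fold 63 of 86 genes fell, against 25.8% of all genes, and 7 rose, against 30.6% of all genes. The median difference was -0.49, against 0.00 over all genes. Past 1.5-fold, 35 genes were lower (background 12.8%) and 1 higher (background 13.3%). Those 35 comprised 19 of complex I, 2 assembly factors, 3 of complex III, 6 of complex IV and 5 of complex V.

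Cox5a, a nuclear-encoded subunit of complex IV, was at 10.66 and 10.87 in pituitary, against 12.58 ± 0.29 in brain and spinal cord (SD over 49 regions). The difference was -1.81 (SE 0.07, limma adjusted p = 2.89e-32), and its other probe sets gave -1.73 to -1.58. Atp5o, the stalk subunit that makes ATP synthase sensitive to oligomycin, averaged 10.74 in pituitary and 12.12 in brain and spinal cord, a difference of -1.38 (SE 0.06). Uqcrc1, a core subunit of complex III, averaged 10.40 in pituitary and 11.56 in brain and spinal cord, a difference of -1.17 (SE 0.07). Ndufaf5, which modifies a complex I subunit during assembly, was at 7.49 and 7.89 in pituitary, against a mean of 9.27 in brain and spinal cord (difference -1.58, SE 0.08). Ndufb8 fell by 1.36 on the log2 scale (SE 0.06), and its other probe set was too dim to compare, with a mean of 5.49.

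Atp5b averaged 12.36 in pituitary and 13.31 in brain and spinal cord, a difference of -0.95 (SE 0.06), and Ndufa9 differed by -1.03 (SE 0.07). The 1 gene higher past 1.5-fold was Cox7a2l, a factor that joins complexes III and IV in supercomplexes. It averaged 11.80 in pituitary and 11.19 in brain and spinal cord, a difference of 0.62 (SE 0.07, limma adjusted p = 1.82e-12), and its arrays overlapped. Its difference was 0.581, under 1.5-fold, with arrays centred on their median, and its adjusted p in limma was 0.0695 with region means as samples. With region means as samples, 30 genes were lower and 1 higher at any fold, against 5.78% and 11.8% of all genes.

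All 7 anterior pituitary markers were higher in pituitary (list mean 13.36, against 6.59 to 8.50 in brain and spinal cord). All 12 general neuron markers (9.65, against 10.46 to 12.69), all 7 fast-spiking markers (7.57, against 7.75 to 11.40), all 8 oligodendrocyte markers (7.14, against 7.74 to 12.14) and all 10 astrocyte markers (7.91, against 9.90 to 11.86) were lower. Their part in the result was not tested.

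The pineal gland, which makes melatonin, was compared with the same 49 regions. Its genes differed in both directions, more often upward. At any fold 44 of 86 genes rose, against 32.8% of all genes, and 14 fell, against 24.5% of all genes. The median difference was 0.17, against 0.02 over all genes. Past 1.5-fold, 13 genes were higher (background 15.9%) and 1 lower (background 12.6%). Complex V had 13 higher and 1 lower of 17 at any fold, and complex I had 16 higher and 7 lower of 34. With region means as samples, 11 of 86 genes were higher and none lower at any fold, against 14.1% and 6.48% of all genes. The share of higher genes was then no longer above that of all genes.

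Cox6b2 averaged 9.53 in pineal gland and 7.35 in brain and spinal cord, a difference of 2.18 (SE 0.11, limma adjusted p = 2.15e-27). Ndufv3, an accessory subunit at the NADH-binding tip of complex I, was at 13.13 and 13.25 in pineal gland, against a mean of 12.07 in brain and spinal cord (difference 1.12, SE 0.05). Atp5k, subunit e of ATP synthase, averaged 13.55 in pineal gland and 12.63 in brain and spinal cord, and its other probe sets gave larger differences of 1.01 to 1.57. Cox8b averaged 7.94 in pineal gland and 6.91 in brain and spinal cord, with overlap. Ndufaf8, which works with Ndufaf5, differed by 0.82 (SE 0.07), or by 0.58 as the mean of its probe sets. Ndufaf5 itself was lower, at 8.66 in pineal gland and 9.27 in brain and spinal cord, with overlap and an adjusted p of 0.2 in limma when region means were the samples.

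Of the remaining genes past 1.5-fold, Uqcrb, a complex III subunit, stood at 13.98 and 14.06, above every brain and spinal cord array, of which the highest was at 13.58. Atp5g1 had a difference of 0.69 (SE 0.06). In pineal gland, photoreceptor markers had a list mean of 9.79 (against 6.35 to 6.78), general neuron markers 9.21 (against 10.46 to 12.69), astrocyte markers 8.72 (against 9.90 to 11.86) and oligodendrocyte markers 7.32 (against 7.74 to 12.14). All 8 choroid plexus markers were higher in pineal gland (11.18, against 6.84 to 9.86), as were 8 of 10 meninges markers (10.02, against 7.05 to 10.28). The part of these lists was not tested.

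Last, POA/BF was set against the 51 other regions, taken as their mean. Its respiratory chain genes were slightly low, with arrays at -0.13 and -0.20 on the 86-gene mean and a rank of 44 of 52, and 77 of 86 genes were below their own mean. At any fold 40 of 86 genes fell, against 14.3% of all genes, and 1 rose, against 13.3% of all genes. The median difference was -0.16, against -0.01 over all genes. Past 1.5-fold, 1 gene was lower (background 1.13%) and none higher (background 3.83%). Lower genes at any fold were 19 of 34 in complex I, 3 of 8 assembly factors, 5 of 8 in complex III, 5 of 19 in complex IV and 8 of 17 in complex V.

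The gene past 1.5-fold was Atp5e, the epsilon subunit of the central stalk of ATP synthase. It was at 9.92 and 9.94 in POA/BF, against 9.58, 10.58 and 11.50 as the lowest, median and highest array elsewhere. The groups overlapped, and the difference of -0.59 (SE 0.08, limma adjusted p = 2.20e-08) lay at the 1.5-fold threshold and missed it in 47 of the fits that each left out 1 array, while 57 kept it. Ndufs4, a complex I subunit, was at 9.72 and 9.73 in POA/BF, against a mean of 10.28 elsewhere (difference -0.56, SE 0.07). Atp5g1 was at 11.13 and 11.19, against a mean of 11.72 elsewhere (difference -0.56, SE 0.06). The 1 gene that rose was Cox7a2l, by 0.26.

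These differences were small beside the spread between regions. With region means as samples, none of the 86 genes passed in limma at any fold, and none passed at an unadjusted p under 0.05 with 1.5-fold. That fit found 1 gene in all. The POA/BF arrays stood apart in their hybridisation controls, at 5.18, against 11.01 elsewhere. Their 3′ to 5′ difference of Gapdh was 0.17, against a mean of -0.05 elsewhere. This was not particular to POA/BF, since piriform cortex was at 0.17, ventral subparaventricular zone at 0.20 and median eminence at 0.22. All 10 meninges markers were higher in POA/BF (10.17, against a median of 7.53 elsewhere), 7 of 10 astrocyte markers and 6 of 8 oligodendrocyte markers were higher, and 4 of 7 fast-spiking markers were lower. Their part was not tested.

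Subunit forms within a family had different maps. For subunit 8, the widespread Cox8a was highest in cerebellar lobe (13.75) and lowest in dorsal subparaventricular zone (12.33). After retina, Cox8b was highest in cerebellar nucleus (8.36 and 8.29), pontine nucleus (8.63 and 7.89) and pineal gland (8.05 and 7.83), which did not differ beyond the gap between the pontine arrays. Cox8c stayed between 9.50 and 9.97. For subunit 7a, the widespread Cox7a2 ran from 13.63 in medial vestibular nucleus to 12.80 in pituitary. Cox7a1 had its next level after retina in anterior spinal cord, at 7.10 and 6.92.

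For subunit 6a, Cox6a1 was highest in ventral anterior and ventrolateral thalamus (13.93) and lowest in retina (12.95). Cox6a2 was highest within the brain in mediodorsal thalamus (9.97), with lateral geniculate (8.94), ventral anterior and ventrolateral thalamus (8.92) and retrosplenial cortex (8.79) next and not separated from each other by their arrays. It was lowest in suprachiasmatic nucleus (7.48). For subunit 6b, Cox6b1 ran from 13.60 in medial vestibular nucleus to 12.24 in pituitary. Cox6b2 was at 9.59 in retina and 9.53 in pineal gland, then 9.12 and 8.88 on the arrays of supraoptic nucleus and 8.60 in cerebellar lobe, and was lowest in CA1 (6.78).

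The list mean of striated muscle markers was 6.21 to 6.27 in the thalamic regions, against 6.10 to 6.53 in hypothalamus. In pineal gland it was 6.14, against 6.06 to 6.53 in brain and spinal cord. The part of muscle tissue in the levels of Cox6a2, Cox6b2 and Cox8b in these regions was not tested.

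For subunit 4, Cox4i1 ran from 13.49 in pontine nucleus to 12.24 in pituitary, and Cox4i2 stayed between 7.03 and 7.50. Cox7b2, the testis form of subunit 7b, was dim everywhere and reached 5.46 in mediodorsal thalamus. Ndufa4 was highest in cerebellar lobe (13.00) and lowest in dorsal subparaventricular zone (10.86), with pituitary (11.12) and ventral tegmental area (11.41) next to lowest. The 3 genes Atp5g1, Atp5g2 and Atp5g3 encode the same mature c subunit with different import sequences. Atp5g1 was highest in pineal gland (12.38), Atp5g2 in retina (12.28) and Atp5g3 in cerebellar lobe (13.65). In pituitary, Atp5g3 was at its lowest (12.87), while Atp5g2 was at 11.96 there, higher than in brain and spinal cord by 0.56 (limma adjusted p = 1.72e-11).

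**Figure D4:**
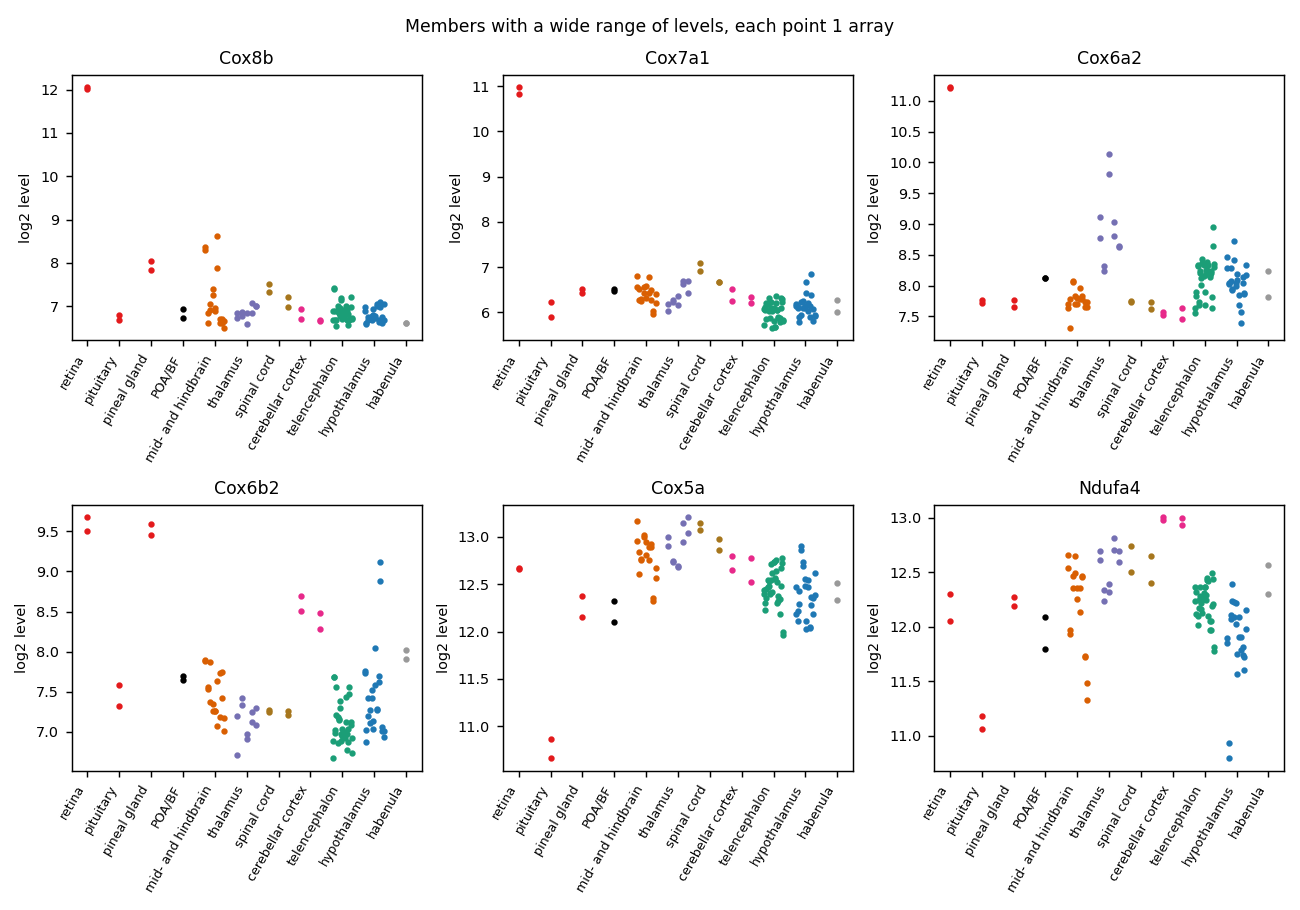
Log2 level of Cox8b, Cox7a1, Cox6a2, Cox6b2, Cox5a and Ndufa4, 1 panel each with its own axis, by tissue and division, with 1 point per array. Cox8b, Cox7a1 and Cox6a2 peak in retina, Cox6b2 in retina and pineal gland, and Cox5a is lowest in pituitary, while the 2 highest thalamic points of Cox6a2 are mediodorsal thalamus at 9.81 and 10.14.

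Genes of the citric acid cycle moved along with the chain in the comparisons of thalamus, midbrain and hindbrain, and pituitary, and less clearly in pineal gland and POA/BF. Of 14 citric acid cycle genes, 12 were higher and none lower in thalamus over hypothalamus at any fold (median difference 0.36), and 14 were higher in midbrain and hindbrain over telencephalon (median 0.25). In pituitary 13 were lower and none higher (median -0.61). In pineal gland 5 were higher and 4 lower (median 0.06), and in POA/BF 4 were lower and 10 not called. Cs, citrate synthase, was at 10.31 in pituitary and 11.54 in brain and spinal cord (difference -1.23, SE 0.07), and Idh3a, a subunit of the NAD-linked isocitrate dehydrogenase, differed by -1.44 (SE 0.08). Of the 4 complex II genes, 3 were lower in pituitary, Sdhb by -1.14 (SE 0.05). The 5 electron carriers outside the rule split in pituitary, with 3 higher and 2 lower (median 0.45). The lower ones were Cycs, cytochrome c (difference -1.13), and Cyc1, cytochrome c1 (-1.30), while Etfdh, which passes electrons from fatty acid oxidation, was higher by 1.46 (SE 0.11). In thalamus over hypothalamus, 2 of the 5 carriers were higher and 1 lower.

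Glycolysis genes followed the chain in part. Of 13, 10 were higher and 2 lower in thalamus over hypothalamus, and all 13 were lower in pituitary (median -0.80). Genes of the mitochondrial ribosome moved less than the chain in some comparisons. Of 76, 34 were higher and 20 lower in thalamus over hypothalamus (median 0.05), and 56 higher and 5 lower in midbrain and hindbrain over telencephalon (median 0.15). In cerebellar cortex their median was 0.02 and in pituitary -0.13. Elsewhere they moved as much or more, with medians of 0.33 in retina, 0.22 in pineal gland and -0.18 in POA/BF. The chain's medians there were 0.21, 0.16 and -0.16. Cytosolic ribosome genes went against the chain in some comparisons and with it in others. Of 40, none was higher and 39 were lower in thalamus over hypothalamus (median -0.35), while 36 were higher and none lower in pituitary (median 0.50). In retina 38 were higher and none lower (median 0.73), in midbrain and hindbrain over telencephalon 17 were higher and 8 lower, and in pineal gland 19 were higher and 6 lower.

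Among 12 regulators of mitochondrial biogenesis, 6 were higher and 5 lower in thalamus over hypothalamus. Ppargc1a, the coactivator PGC-1 alpha, averaged 10.92 in thalamus and 9.41 in hypothalamus (difference 1.51, SE 0.13), and Esrra, a nuclear receptor that works with it, averaged 9.19 in thalamus and 8.07 in hypothalamus. In the other comparisons Ppargc1a did not always go with the chain. It was lower in cerebellar cortex than in isocortex by -1.07 (SE 0.22) and lower in retina by -2.44 and in pineal gland by -3.02 than in brain and spinal cord, where the chain's median was higher. In pituitary it differed by -3.55 (SE 0.24).

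Over the 49 brain and spinal cord regions, the mean of the 86 genes correlated at 0.85 with the mean of the citric acid cycle and of complex II, at 0.80 with the mitochondrial ribosome and at -0.10 with the cytosolic ribosome. For cell lists the value was 0.82 with fast-spiking neurons, 0.58 with oligodendrocytes, 0.50 with general neuron markers, 0.29 with astrocytes and -0.12 with microglia. The next values are over the 48 regions other than POA/BF, whose control probe sets stood apart. The mean of the 86 genes correlated at -0.44 with the 3′ to 5′ difference of Gapdh, a sign of RNA length. It correlated at -0.19 with that of Actb and at 0.42 with the hybridisation controls. The part of these in the pattern was not tested.

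The 10 genes outside the family most like its mean over 49 regions were Mrpl42 (0.92), Mrpl18 (0.91), Mrpl12, Mpc1 and Ss18l2 (0.89 each), Cmc2 and Mrps36 (0.88 each), Ghitm and Cyc1 (0.87 each) and Micos10 (0.86). Mrpl42, Mrpl18 and Mrpl12 encode proteins of the mitochondrial ribosome, and Mpc1 is a subunit of the mitochondrial pyruvate carrier. Cyc1 belongs to complex III but carries a name outside the rule. Mpc1 had the widest range of the 10 over these regions, 1.75, from ventral anterior and ventrolateral thalamus to median eminence.

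**Figure D5:**
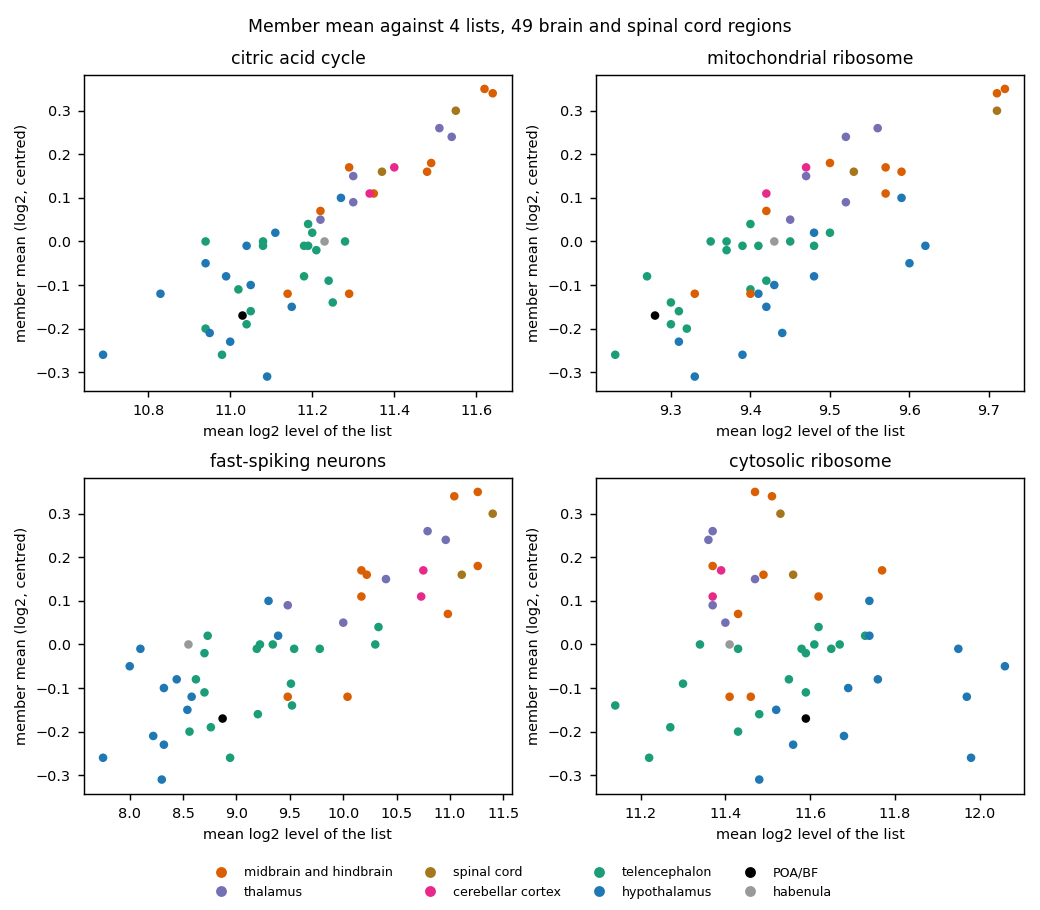
Mean of the 86 respiratory chain genes in each region (log2 units relative to the mean) against the mean log2 level of 4 gene lists in the same region, 1 panel per list, with 1 point for each of the 49 brain and spinal cord regions coloured by division. Points rise together for the citric acid cycle (correlation 0.85), the mitochondrial ribosome (0.80) and fast-spiking neuron markers (0.82), and not for the cytosolic ribosome (-0.10).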

How the data were processed

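Expression was measured on Affymetrix mouse arrays, 2 for each of 52 regions. The deposited values are log2 intensities made by the authors with RMA, per the submitters' processing notes, and were used as deposited. Of 45101 probe sets, 34945 named 1 gene, 932 several and 9160 none, and 64 were controls, and each of the 18193 genes was represented by its brightest single-gene probe set. Array medians ran from 7.33 to 7.46. The small number of arrays, 2 a region, limits how precise a value is.

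limma 3.58.1 in R 4.3.3 fitted a mean per region (52 residual and 7.87 prior degrees of freedom). P-values were two-sided, with Benjamini-Hochberg adjustment across the whole gene table of each comparison. Calls needed an adjusted p under 0.05 and 1.5-fold, or a 2-fold range in the F test. The fit was tested on simulated data for thalamus minus hypothalamus: with 200 of 18193 genes changed, 100% of those changed by 0.8 log2 units were called. The simulated regions did not differ otherwise and smaller changes were not simulated, so this does not bear on calls at any fold. Region means as samples gave a fit that includes the spread between regions.

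Members, gene lists, motifs and comparisons were chosen with earlier results of these data known. Named genes were up to 5 called in each direction of a comparison, the 10 widest and 5 narrowest ranges, the 5 lowest correlations to the other members, the subunit families and the 10 most similar outside genes. Pathway genes and some weaker members are examples chosen after their values were seen. Other lists, such as ependyma, were computed and are not described. The proteasome list is given only for midbrain and hindbrain over telencephalon and for its pairwise correlation. Its mean correlated at 0.60 with the member mean.

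Replicate numbers did not pair the arrays: the deviations of same-numbered arrays correlated between -0.50 and 0.52 over 1326 pairs of regions, and 24.7% of them were above 0.1. POA/BF control probe sets stood apart and were not used. Alternatives were the fold threshold, median centring, quantile normalisation, the mean of all probe sets, a filter on dim genes, a replicate block, region means as samples, left-out regions and each array left out.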

Additional observations from a re-analysis of the deposited data

How the results depend on the processing

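No result reversed its direction under any alternative. The replicate block changed no call, with 63 genes in the F test as without it. At a 2-fold threshold the counts of higher genes were 0 for thalamus, 0 for midbrain and hindbrain, 1 for cerebellar cortex, 5 for retina, 0 for pituitary and 3 for pineal gland. Those of lower genes were 0 for cerebellar cortex, 10 for pituitary, 0 for pineal gland and 0 for POA/BF, and 9 genes had a 4-fold range. With no fold threshold, genes higher and lower were 69 and 8 in thalamus, 71 and 7 in midbrain and hindbrain, 48 and 10 in cerebellar cortex, 53 and 12 in retina, 7 and 63 in pituitary, 44 and 14 in pineal gland, and 1 and 40 in POA/BF. Centring arrays on their median gave 10 higher in thalamus (median difference 0.344), 0 in midbrain and hindbrain, 8 higher and 5 lower in retina (median 0.0301), 0 higher in pituitary, 3 lower in POA/BF (median -0.211) and median pairwise correlations of 0.561 over 49 regions and 0.544 over 52. Quantile normalisation gave 0 higher in midbrain and hindbrain, 4 lower in retina (median 0.119), 2 higher in pituitary (median -0.344), 0 lower in POA/BF (median -0.0913) and correlations of 0.477 and 0.451. The mean of all probe sets gave 2 lower in retina and a median of -0.418 in pituitary. Leaving out dim genes gave 1 higher in cerebellar cortex and correlations of 0.584 and 0.58. Region means as samples gave 0 lower in POA/BF, 0 lower in pineal gland and 0 higher in pituitary. Without retina, pituitary and pineal gland, 40 genes passed the F test and 0 were lower in POA/BF. Except where the alternative itself sets the threshold, the genes or the spread, the cause was not tested.

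With 1 array left out, the F test called 61 to 66 genes. Thalamus had 6 to 7 higher (median 0.255 to 0.295), midbrain and hindbrain 1 (0.191 to 0.217), and cerebellar cortex 2 to 4 higher and 1 to 2 lower (0.146 to 0.197). The counts in cerebellar cortex were 2 without the first and 4 without the second retrosplenial cortex array, and 2 were lower without the second cingulate cortex array. Retina had 13 to 18 higher and 0 to 2 lower (0.203 to 0.216), the 2 without its first array. Pituitary had 1 to 2 higher and 29 to 38 lower (-0.501 to -0.421), with 2 higher without its second array. Pineal gland had 9 to 14 higher, 9 without its first array, and 1 lower (0.097 to 0.223). POA/BF had 0 to 1 lower (-0.197 to -0.109), with 1 in 58 of the fits and 0 in the others.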
